A study of Homo sapiens with 12 samples.

Results

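A set of 10 genes of the Wnt pathway were followed across 4 states of IMR-90 cells, human lung fibroblasts that divide a limited number of times in culture. They were the Wnt ligands WNT2, WNT5A, WNT5B and WNT16, the secreted inhibitors SFRP1, DKK1, DKK2 and DKK3, the feedback regulator AXIN2, and VANGL2, a membrane protein of planar cell polarity. These 10 genes were taken from 19775 genes measured, through 26 Affymetrix probe sets that name 1 of them and no other gene. Their values are the mean of a gene's probe sets. The genes were chosen on group differences that had already been seen in these same arrays, among them those of WNT2 and VANGL2, so the values of the 10 genes are given as a description, with no p-value. A gene is written here as "called" where limma's adjusted p, over all 19775 genes, was under 0.05.

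The 12 arrays formed 4 groups of 3, with no genetic change or added agent in any group. Young cells at population doubling 30 and senescent cells at population doubling 48 were kept at 20% oxygen, and young cells at population doubling 30 and old cells at population doubling 53, labelled nonsenescent, at 3% oxygen. Each oxygen level had its own incubator, so oxygen and incubator cannot be told apart. The labels call the replicates biological without saying whether they were separate cultures, so the error may in part be technical. IMR-90 is a single line, and the senescent and the old cells differ in population doubling as well as in oxygen.

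Wnt ligands are secreted, lipid-modified proteins that bind Frizzled receptors and co-receptors at the surface of neighbouring cells. In the canonical branch the co-receptors LRP5 and LRP6 take part, the beta-catenin destruction complex is held back, and beta-catenin acts with TCF/LEF factors on target genes. AXIN2 is a target that in turn limits the pathway. Secreted frizzled-related proteins such as SFRP1 bind Wnt ligands, and DKK1 and DKK2 bind LRP5 and LRP6. DKK3 is a divergent member of the Dickkopf family that does not act in this simple way. WNT5A and WNT5B signal mainly without beta-catenin, through ROR receptors, calcium and the planar polarity proteins, to which VANGL2 belongs. In the lung, WNT2 is made by mesenchymal cells and takes part in lung development.

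All values are log2 values centred so that each probe set has a median of 0 across the 12 arrays. A value of 0 is therefore a gene's own median, levels of different genes cannot be compared, and whether a gene was above background cannot be read. Array medians over all probe sets ran from -0.02 to 0.05. Of all genes, 4.67% were called higher and 7.84% lower in senescent cells than in young ones at 20% oxygen. In old against young cells at 3% oxygen these shares were 0.981% and 0.759%. In young cells at 3% against 20% oxygen they were 4.96% and 6.84%, and in old cells at 3% against senescent cells at 20% they were 6.59% and 4.41%. For the interaction, the change with population doublings at 20% minus that at 3% oxygen, they were 2.06% higher and 4.37% lower. Of the 10 genes, 3 were higher and 3 lower in senescent cells, 3 higher and 1 lower in old cells at 3%, none higher and 6 lower in young cells at 3% against 20%, 3 higher and 3 lower in old against senescent cells, and 2 higher and 3 lower in the interaction. Since the genes were chosen on these differences, nothing is read from their counts against the background. Without the third young 20% array, 3 of the 10 genes in place of 6 were called in young cells at 3% against 20%. The 344 calls over all genes in old against young cells at 3% became 228 and 227 without the first and the second young 3% array, and 200 and 187 without the first and the second old array.

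WNT2 was high in the young 20% group and in the old 3% group, and low in senescent cells at 20% and in young cells at 3%. In young cells at 20% the arrays read 1.29, 1.19 and 0.78, and in senescent cells -1.38, -1.87 and -1.13. In young cells at 3% they read -0.68, -1.04 and -1.12, and in old cells at 3% they read 0.96, 0.69 and 0.68. The 6 high arrays lay 1.36 or more above the 6 low ones. Within the low arrays the senescent and the young 3% values did not overlap but came within 0.0049 of each other, and within the high arrays the 2 groups overlapped. WNT2 fell 5.84-fold in senescent cells (-2.55 ± 0.19 SE, log2, n = 3 and 3) and rose 3.31-fold in old cells at 3% (1.73 ± 0.19). Between young cells it was 4.1-fold lower at 3% than at 20% (-2.03 ± 0.19), and old cells at 3% were 4.72-fold above senescent cells (2.24 ± 0.19). Its change with population doublings differed by -4.27 ± 0.27 between the oxygen levels. A single probe set stood for WNT2.

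DKK1, a secreted inhibitor that keeps LRP5 and LRP6 from Wnt ligands, had the same pair of low groups and the same pair of high groups as WNT2, over a smaller range. Its 2 high groups stood in the opposite order, with old cells above young cells at 20%. Its arrays read 0.24, 0.16 and 0.36 in young cells at 20% oxygen and -0.86, -0.92 and -0.58 in senescent cells. They read -0.19, -0.16 and -0.21 in young cells at 3% and 0.37, 0.35 and 0.46 in old cells at 3%. The senescent arrays were below all others and the young 3% arrays were next, each apart from its neighbours, while young cells at 20% and old cells at 3% overlapped. DKK1 fell 2.06-fold in senescent cells (-1.04 ± 0.10 SE) and rose 1.49-fold in old cells at 3% (0.58 ± 0.10). It was 1.36-fold lower in young cells at 3% than at 20% (-0.44 ± 0.10), a call that was lost without the third young 20% array (-0.39). The rise at 3% was no longer called when those 2 groups were fitted alone. The interaction was -1.62 ± 0.14. Over the 12 arrays WNT2 and DKK1 correlated at r = 0.91. The arrays share their groups, so this describes the group pattern.

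**Figure D1:**
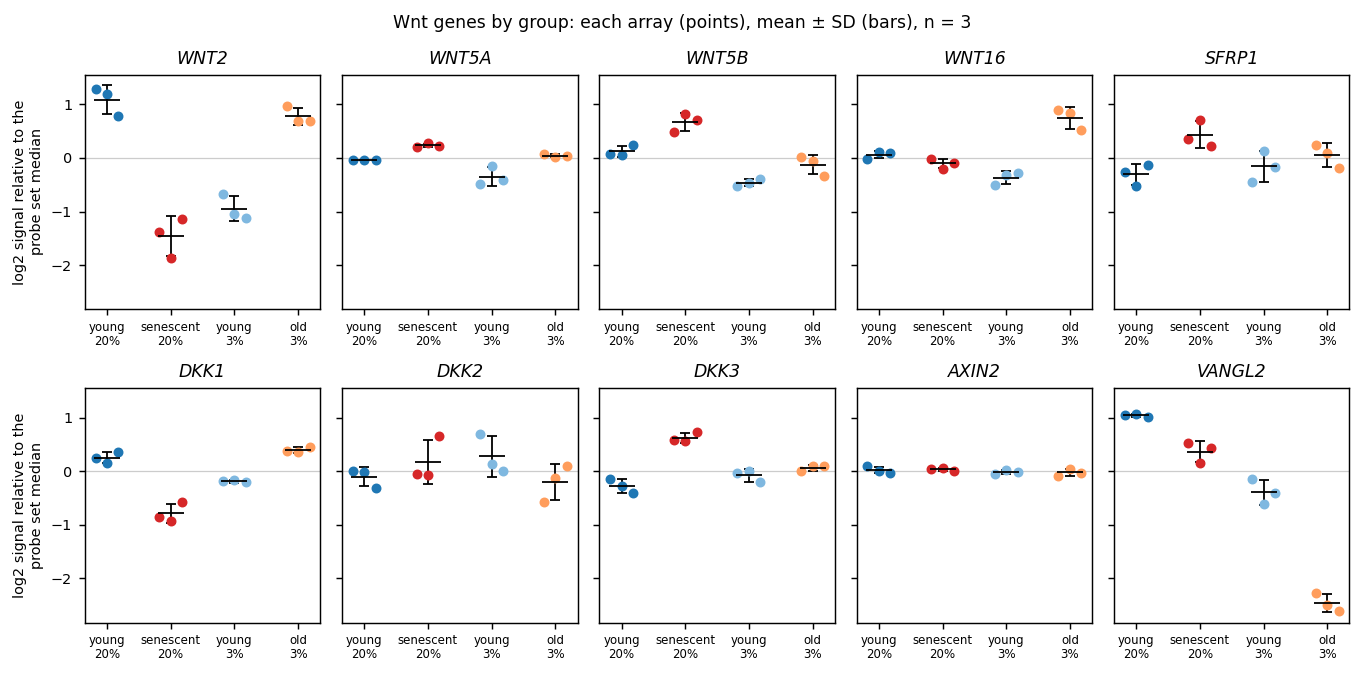
Values of the 10 genes on each array, in log2 units relative to the gene's own median over the 12 arrays (vertical axis), by group (horizontal axis); points are arrays and horizontal bars are group means of 3 arrays. WNT2 and DKK1 are high in the young 20% and old 3% groups, VANGL2 has its lowest arrays in old cells at 3% (-2.28 to -2.60), and AXIN2 stays between -0.08 and 0.09.

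The promoters of WNT2, DKK1 and VANGL2 are shown because these 3 genes carry the group patterns described and have RefSeq entries with 1 start site. The sequences are the 250 bases before the start site in GRCh38.p14, written 5′ to 3′ on the gene's strand, and capitals mark TCF/LEF cores (CTTTGA or CTTTGT on either strand). WNT2 lies at chr7:117323059-117323308 on the minus strand, DKK1 at chr10:52314031-52314280 on the plus strand and VANGL2 at chr1:160400314-160400563 on the plus strand.
WNT2: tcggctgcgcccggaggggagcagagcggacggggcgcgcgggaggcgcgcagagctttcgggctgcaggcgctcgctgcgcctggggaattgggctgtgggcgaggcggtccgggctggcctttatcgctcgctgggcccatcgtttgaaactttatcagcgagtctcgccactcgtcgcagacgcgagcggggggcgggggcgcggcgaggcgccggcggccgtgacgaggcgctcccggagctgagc
DKK1: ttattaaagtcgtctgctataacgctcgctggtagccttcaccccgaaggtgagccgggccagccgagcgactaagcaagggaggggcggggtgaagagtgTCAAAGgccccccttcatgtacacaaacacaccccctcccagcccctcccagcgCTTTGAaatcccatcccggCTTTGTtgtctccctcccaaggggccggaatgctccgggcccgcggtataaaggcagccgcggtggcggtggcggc
VANGL2: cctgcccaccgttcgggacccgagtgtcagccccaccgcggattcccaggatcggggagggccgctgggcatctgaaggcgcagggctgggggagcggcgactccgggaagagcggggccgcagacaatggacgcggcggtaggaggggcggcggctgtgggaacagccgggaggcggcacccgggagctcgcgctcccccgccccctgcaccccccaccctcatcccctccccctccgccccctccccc
The DKK1 window holds 3 TCF/LEF cores, which do not overlap: TCAAAG (the core read on the other strand) 149 to 144 bases before the start, CTTTGA 95 to 90 bases before it and CTTTGT 76 to 71 bases before it. Of 35116 RefSeq promoter windows of this length, 22.8% hold at least 1 such core and 0.584% at least 3. Searches on both strands for a hypoxia response core (ACGTG or GCGTG, in 43.2% of all windows) and for an AP-1 motif (TGAGTCA or TGACTCA, in 4.2%) had no match in these 3 windows. The WNT2 and VANGL2 windows are 74% and 76.4% G or C and the DKK1 window 62.8%, against a median of 58% over all windows. Among the other genes, WNT5A, WNT5B and WNT16 have entries, and 1 window each of WNT5A and WNT16 holds a hypoxia response core (CACGC on the gene's strand). A match is a stretch of letters and says nothing of binding.

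WNT16, a ligand of both canonical and other Wnt signalling, was high only in old cells at 3% oxygen among the 4 groups. Old cells read 0.89, 0.83 and 0.52. Young cells at 3% read -0.50, -0.31 and -0.29, young cells at 20% read -0.02, 0.11 and 0.10, and senescent cells read -0.02, -0.20 and -0.09. In this mean of 2 probe sets, the old cells stood above every other array and the young 3% cells below every other array. The 2 groups at 20% overlapped. The old arrays were apart in 1 probe set (0.88 to 1.35, against at most 0.15). In the other they ran from -0.08 to 0.79 and overlapped every group, with senescent arrays from -0.07 to 0.32 and young 3% arrays from -0.37 to -0.02. WNT16 rose 2.16-fold in old against young cells at 3% (1.11 ± 0.11 SE) and was 1.8-fold above senescent cells (0.85 ± 0.11). It was not called in senescent against young cells (-0.16 ± 0.11). The interaction was -1.28 ± 0.16, with -1.99 ± 0.26 and -0.56 ± 0.29 for the 2 probe sets. The lower value in young cells at 3% than at 20% (-0.43 ± 0.11) lost its call without the second or the third young 20% array (-0.41 each) or the first young 3% array (-0.36).

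WNT5A, the ligand best known for signalling without beta-catenin, moved little. Young cells at 20% read -0.03 on each array and senescent cells 0.21, 0.27 and 0.22. Young cells at 3% read -0.49, -0.15 and -0.41 and old cells 0.08, 0.01 and 0.04. In ascending order the groups were young 3%, young 20%, old 3% and senescent, with no overlap between neighbours. The 1.25-fold lower value in young cells at 3% (-0.32 ± 0.09 SE) was the only call, and it was lost when any of 11 of the 12 arrays was left out, with values from -0.33 to -0.25. Differences of 0.26 ± 0.09 (senescent minus young) and 0.40 ± 0.09 (old minus young at 3%) were not called. Both were called when the second young 3% array was left out (0.26 and 0.50).

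WNT5B, the close relative of WNT5A, was highest in senescent cells. It read 0.49, 0.82 and 0.70 in senescent cells and 0.07, 0.06 and 0.24 in young cells at 20% oxygen. It read -0.52, -0.47 and -0.39 in young cells at 3% and 0.01, -0.06 and -0.33 in old cells. No neighbouring groups overlapped, with young cells at 3% lowest, then old cells, then young cells at 20%. WNT5B rose 1.47-fold in senescent cells (0.55 ± 0.11 SE) and was 1.49-fold lower in young cells at 3% than at 20% (-0.58 ± 0.11) and 1.74-fold lower in old than in senescent cells (-0.80 ± 0.11). The change at 3% (0.33 ± 0.11) and the interaction (0.22 ± 0.16) were not called. WNT5A and WNT5B correlated at r = 0.83 over the 12 arrays, whereas WNT2 and WNT5B had r = -0.28.

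Among the other secreted inhibitors, DKK3 was high in senescent cells alone of the 4 groups. Its arrays read 0.58, 0.56 and 0.73 in senescent cells against -0.15, -0.27 and -0.41 in young cells at 20% oxygen, -0.03, 0.01 and -0.21 in young cells at 3% and -0.0028, 0.09 and 0.10 in old cells. The senescent arrays were apart from the rest, and neighbours among the other 3 groups overlapped. DKK3 rose 1.86-fold in senescent cells (0.90 ± 0.10 SE), was 1.47-fold lower in old than in senescent cells (-0.56 ± 0.10), and had an interaction of 0.76 ± 0.14. At 3% oxygen the difference between old and young cells was 0.14 ± 0.10 and was not called. DKK3 correlated with DKK1 at r = -0.75 and with SFRP1 at r = 0.74.

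SFRP1 rose 1.66-fold in senescent cells (0.73 ± 0.17 SE), its only call. Senescent arrays read 0.36, 0.71 and 0.22, above the young 20% arrays at -0.27, -0.52 and -0.13. Young cells at 3% read -0.44, 0.13 and -0.16 and old cells 0.25, 0.09 and -0.18. In these means over 4 probe sets, all neighbouring groups overlapped in order of their means. In 2 of the probe sets the senescent arrays were above all others (0.79 to 0.83 against at most 0.23, and 0.28 to 0.54 against at most 0.20). Those 2 gave -0.71 ± 0.10 SE and -0.27 ± 0.10 in old against senescent cells, and interactions of 0.98 ± 0.14 and 0.53 ± 0.15. The other 2 gave -0.37 ± 0.31 and -0.16 ± 0.32, and interactions of 0.42 ± 0.44 and 0.18 ± 0.45. The call of the SFRP1 mean in senescent cells was lost without the second young 20% array (0.63) or the second senescent array (0.60). DKK2 was called in none of the comparisons. Its spread within groups was wide, from -0.57 to 0.10 in old cells and from -0.07 to 0.65 in senescent cells, with an SE of 0.23 for each difference between 2 groups. Its 4 differences lay between -0.47 and 0.38.

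AXIN2, the feedback target of beta-catenin, was not called in any comparison. Its 12 values lay between -0.08 and 0.09, the differences between groups between -0.06 and 0.02 with an SE of 0.08, and all neighbouring groups overlapped. The mean joins probe sets that did not vary together. One of its 4 probe sets differed by -0.45 in senescent against young cells at 20% and -0.54 in old against young cells at 3%, with SDs of 0.25 to 0.49 within groups, and correlated at -0.81 with another AXIN2 probe set over the 12 arrays.

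VANGL2 descended through the 4 groups without overlap. Its arrays read 1.04, 1.07 and 1.02 in young cells at 20% oxygen and 0.52, 0.15 and 0.43 in senescent cells. They read -0.15, -0.62 and -0.40 in young cells at 3% and -2.28, -2.50 and -2.60 in old cells. The gap below the young 20% arrays was 0.51, that between senescent and young 3% arrays 0.30 and that above the old arrays 1.66. VANGL2 fell 4.2-fold in old against young cells at 3% (-2.07 ± 0.14 SE) and 1.6-fold in senescent cells at 20% (-0.68 ± 0.14), with an interaction of 1.39 ± 0.19. It was 2.7-fold lower in young cells at 3% than at 20% (-1.43 ± 0.14) and 7.08-fold lower in old than in senescent cells (-2.82 ± 0.14). The fall in senescent cells was no longer called after another quantile normalization (-0.49). Like WNT2 it had 1 probe set. WNT2 and VANGL2 had r = -0.18 with each other, and VANGL2 had its most negative correlation among the 10 genes with WNT16 (r = -0.68).

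**Figure D2:**
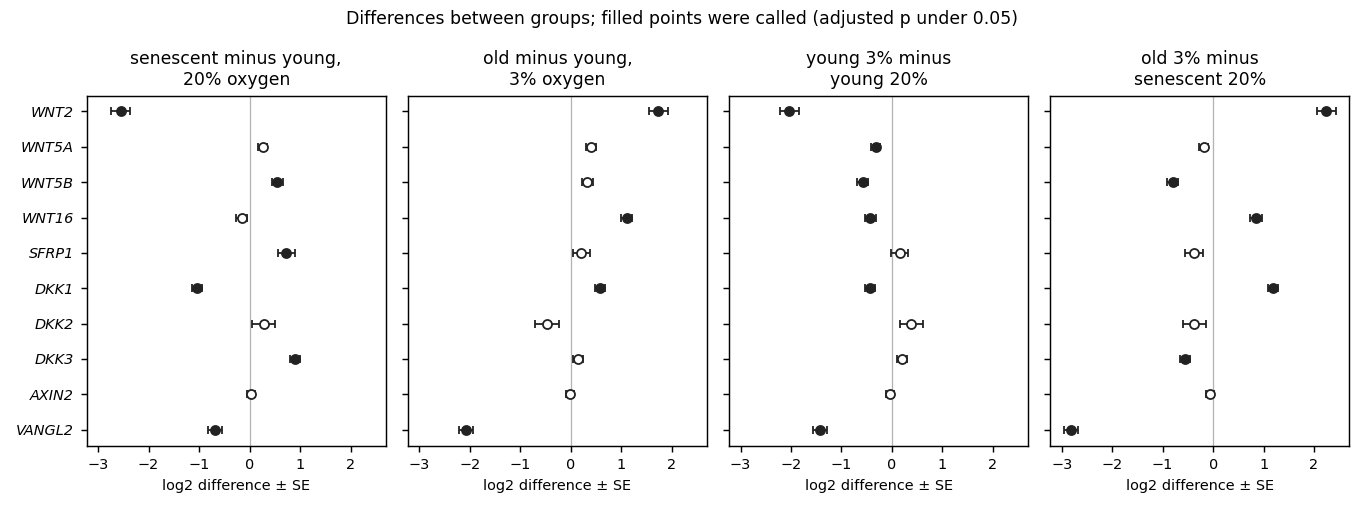
Log2 differences of the 10 genes (horizontal axis) with standard errors from limma, in 1 panel for each of the 4 differences between 2 groups; filled points were called and open points were not. WNT2 and DKK1 lie below 0 in senescent against young cells and above 0 in old against young cells at 3% oxygen, while VANGL2 lies below 0 in all 4 differences.

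The probe sets of a gene did not always move by the same amount. For WNT5B, 1 probe set gave 0.97 in senescent against young cells, -1.17 in young cells at 3% against 20% and -1.81 in old against senescent cells, whereas the other 2 gave 0.26 and 0.43, -0.27 and -0.29, and -0.05 and -0.55. The gene's mean thus rests largely on that probe set. For WNT16, the 2 probe sets rose by 1.62 and 0.61 in old cells at 3%, gave 1.41 and 0.29 against senescent cells, and correlated at 0.47. For DKK3, 4 probe sets gave 1.08 to 1.47 in senescent cells and the other 2 gave 0.26 and 0.32. For SFRP1, 2 probe sets gave 0.79 and 1.14 and the other 2 gave 0.58 and 0.42, with larger errors (0.31 and 0.32). The 2 probe sets of WNT5A correlated at 0.93 and those of DKK2 at 0.74. With the probe set of largest SD in place of the mean, called values moved by over 1.5 times, further from 0, for WNT5B in 3 comparisons, WNT16 in 2 and DKK3 in 3. Their values that were not called also moved, for example WNT16 in senescent cells from -0.16 to -0.38. WNT5A (-0.33) and WNT16 (-0.59) in young cells at 3% and SFRP1 in senescent cells (0.58) were no longer called, which left 4 of the 6 calls in young cells at 3% against 20% and 5 of the 6 in senescent cells.

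**Figure D3:**
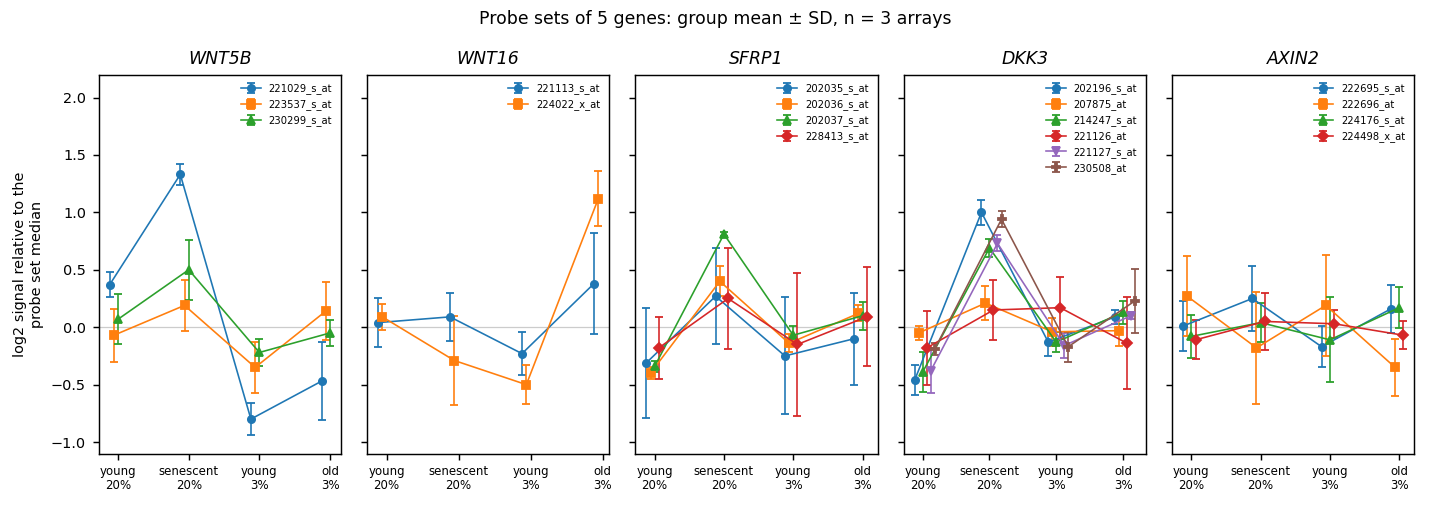
Group means of each probe set of 5 genes, in log2 units relative to the probe set's own median over the arrays (vertical axis), by group (horizontal axis); bars are the SD of 3 arrays and lines join the means of a probe set. One WNT5B probe set has means of 1.33 in senescent and -0.47 in old cells while the other 2 move less, and 4 of the 6 DKK3 probe sets differ by 1.08 to 1.47 between senescent and young cells at 20% oxygen.

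The genes whose pattern was most like that of WNT2 over the 12 arrays were ranked among 9888 genes with an SD at or above the median. They were TSPAN2 (r = 0.967), a tetraspanin, FGD4 (0.966), an exchange factor for CDC42, SMPDL3A (0.951), RASL11B (0.950) and CYP1B1 (0.944), a cytochrome P450. TSPAN2 had group means of 0.65 in young cells at 20%, -1.32 in senescent cells, -0.49 in young cells at 3% and 0.52 in old cells. CYP1B1 had 0.67, -1.12, -0.32 and 0.44 in the same order. The most opposite were CCBE1 (-0.955), PTPRF (-0.929) and PPME1 (-0.923). For VANGL2 the most alike were STARD4 (0.985), a sterol carrier, GADD45A (0.984), a stress-induced growth regulator, ALDH18A1 (0.980), an enzyme of proline synthesis, MORC4 (0.980) and JUN (0.976), a subunit of AP-1. STARD4 had group means of 0.57, 0.35, -0.23 and -1.51, and GADD45A 0.42, 0.16, -0.23 and -0.95. PITPNC1 (-0.970), ABCG1 (-0.967) and SERPINB1 (-0.959) were the most opposite. These genes were selected for likeness, so their correlations carry no test.

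**Figure D4:**
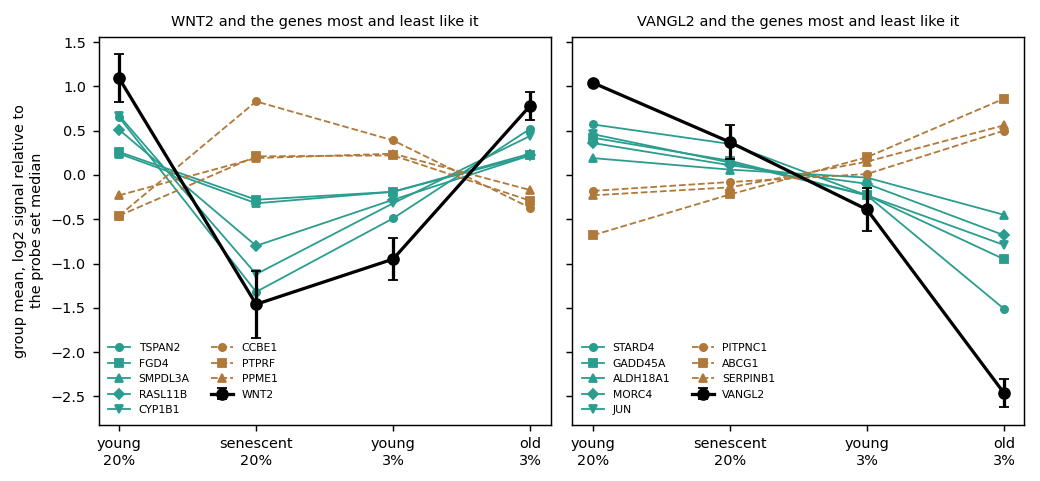
Group means, in log2 units relative to each gene's median over the 12 arrays, of WNT2 and of VANGL2 with the genes most (solid lines) and least (dashed lines) correlated with each over the arrays; bars on WNT2 and VANGL2 are the SD of 3 arrays. TSPAN2 and CYP1B1 rise and fall with WNT2 across the 4 groups, and STARD4 descends with VANGL2 to -1.51 in old cells at 3% oxygen.

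A further 113 genes of the pathway were measured. Percentages beside their counts are the shares of all genes called higher and lower, and medians are set against those of all genes. The counts per list further below are to be read beside the same shares. In senescent against young cells 3 were higher and 10 lower (4.67% and 7.84%, median 0.05 against 0.04). In old against young cells at 3% 5 were higher and 3 lower (0.981% and 0.759%, median 0.08 against 0.05). In young cells at 3% against 20% 2 were higher and 13 lower (4.96% and 6.84%, median -0.11 against -0.03). In old against senescent cells 8 were higher and 8 lower (6.59% and 4.41%, median -0.05 against -0.02). In the interaction 2 were higher and 11 lower (2.06% and 4.37%, median -0.07 against -0.03). The 8 calls in old against young cells at 3% became 3 without the first or the third young 3% array or the first old array, 5 without the second young 3% array and 2 without the second old array. The 16 calls in old against senescent cells became 10 without any 1 senescent array or the second old array and 9 without the first old array. The 13 interaction calls became 7 without the first young 20% array and 6 without the third senescent or the first old array. Single calls were followed with each array left out for up to 4 genes per list and contrast, 62 calls of the 113 genes in all. Of those 62, which are not all of the calls, 32 held without any 1 array and 30 were lost when some array was left out. Adjusted p-values below are limma's, over all 19775 genes.

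None of the 13 other Wnt ligands measured was called by limma in any comparison, with 1 at an unadjusted p under 0.05 in old against young cells at 3% and 0 in the other 4. WLS, the carrier that brings Wnt ligands to the cell surface, was 1.36-fold lower in young cells at 3% than at 20% (-0.45 ± 0.09 SE, adjusted p = 0.00571) and had an interaction of -0.70 ± 0.13 (adjusted p = 0.00574). Its rise in old cells at 3% (0.43, adjusted p = 0.0323) reached 0.129 without the first old array. With the WLS probe set of largest SD these last 2 values were -1.21 and 0.65. They were -0.82 and 0.52 for another WLS probe set, and -0.07 and 0.13 for the remaining one. The group means of WLS were 0.20 in young cells at 20%, -0.07 in senescent cells, -0.25 in young cells at 3% and 0.19 in old cells.

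Of 15 Frizzled receptors and co-receptors, 3 were lower and none higher in senescent cells. FZD7, a Frizzled receptor, fell 1.55-fold (-0.63 ± 0.08 SE, adjusted p = 1.98e-04), with arrays from 0.04 to 0.11 in young and from -0.60 to -0.48 in senescent cells, and had a change of 0.0015 at 3% oxygen. Its interaction was -0.63 (adjusted p = 0.00478). ROR1, a receptor for WNT5A, fell 1.96-fold (-0.97 ± 0.11, adjusted p = 8.96e-05) and was also 1.79-fold lower in young cells at 3% (-0.84, adjusted p = 2.39e-04). Its fall in old cells at 3% (-0.55, adjusted p = 0.0247) and its lower value in old than in senescent cells (-0.43, adjusted p = 0.0264) reached 0.108 without the first old array and 0.12 without the first senescent array. The ROR1 probe set of largest SD gave -1.93, -1.48, -1.37 and -0.92 for these 4 differences in the order given. The other ROR1 probe sets gave 0.09 and -0.37 in old against young cells at 3%, and -0.06 and -0.30 in old against senescent cells. ROR2, its relative, was 1.99-fold lower in senescent cells (adjusted p = 0.0111, and 0.0568 without the first senescent array). In old cells, FZD6 was higher than in young cells at 3% (0.67, adjusted p = 0.0201, and 0.079 without the second old array) and FZD4 lower than in senescent cells (-0.34, adjusted p = 0.0382, and 0.115 without the second old array or 0.373 for the probe set of largest SD).

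ZNRF3, a ubiquitin ligase that removes Frizzled from the membrane, was the 1 gene called among 9 R-spondins, their receptors and turnover factors. It fell 1.96-fold in senescent cells (-0.97 ± 0.18 SE, adjusted p = 0.00289). Its lower value in young cells at 3% (-0.71, adjusted p = 0.0187) and its interaction (-1.06, adjusted p = 0.0245) reached 0.084 and 0.0722 without the first young 20% array. Of the 13 other secreted inhibitors, FRZB, a secreted frizzled-related protein, was the 1 called. It was lower in senescent cells (-0.33, adjusted p = 0.0273) and in young cells at 3% (-0.38, adjusted p = 0.0128), and without the second young 20% array these reached 0.122 and 0.0627. The FRZB probe set of largest SD gave -0.70 and -0.68, with adjusted p of 0.0747 and 0.0942 by limma.

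No gene of the 15 for Dishevelled and the destruction complex was called by limma in any comparison, and 0 to 3 of them had an unadjusted p under 0.05. Among 12 TCF/LEF factors and nuclear co-factors, LEF1 fell 1.96-fold in senescent cells (-0.97 ± 0.09 SE, adjusted p = 1.06e-05). It was 2.06-fold lower in young cells at 3% than at 20% (-1.04, adjusted p = 3.78e-06), and its interaction was -1.26 (adjusted p = 4.43e-05). Young cells at 20% held the LEF1 arrays from 0.73 to 0.97, and every other array was at or below 0.12. Its change lay in 1 of 3 probe sets, which gave -2.81 in senescent cells, -3.07 in young cells at 3% and an interaction of -3.66, while the other 2 gave -0.05 and -0.04 in senescent cells. TLE4, a co-repressor, rose in senescent cells (0.52, adjusted p = 0.0017, with 0.95 for the probe set of largest SD), and PYGO1, a co-activator, was lower (-0.39, adjusted p = 0.0487, and 0.177 without the third young 20% array). The PYGO1 probe set of largest SD gave -0.71 (adjusted p = 0.071). In young cells at 3% against 20%, 2 genes of this list were higher and 2 lower. TCF7L1 was higher (0.72, adjusted p = 0.0031).

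Of 16 feedback genes and direct beta-catenin targets, 1 was higher and 4 lower in senescent cells (4.67% and 7.84% of all genes). In the interaction none was higher and 5 were lower (2.06% and 4.37%). In old against young cells at 3% 2 were higher and none lower (0.981% and 0.759%). In young cells at 3% against 20% none was higher and 4 were lower (4.96% and 6.84%), and in old against senescent cells 2 were higher and 2 lower (6.59% and 4.41%). CCN4, a secreted matricellular protein, had group means of 0.20 in young cells at 20%, -0.50 in senescent cells, -0.15 in young cells at 3% and 0.50 in old cells. It fell 1.63-fold in senescent cells (-0.70 ± 0.11 SE, adjusted p = 0.00111) and rose 1.57-fold in old cells at 3% (0.65, adjusted p = 0.00967, and 0.0516 without the first old array). Its interaction was -1.35 (adjusted p = 2.21e-04), and -2.35 for the probe set of largest SD, which gave 1.31 for the rise in old cells. The other CCN4 probe sets gave interactions of -2.13, -0.93 and -0.0006, and 0.77, 0.52 and -0.01 in old against young cells at 3%. BAMBI, a pseudoreceptor of the TGF-beta family, fell in senescent cells (-0.73, adjusted p = 0.00188) and was lower in young cells at 3% (-0.67, adjusted p = 0.00341), with an interaction of -1.19 (adjusted p = 0.00147). CCND1, which drives entry into S phase, went the other way, 1.52-fold higher in senescent cells (0.61, adjusted p = 0.0214) and 2.13-fold lower in old than in senescent cells (-1.09, adjusted p = 4.47e-04). TNFRSF19, a receptor of the TNF family, was lower in young cells at 3% (-0.51, adjusted p = 0.00459, with -1.27 for the probe set of largest SD). Its other probe sets gave -0.15 and -0.10 there.

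The planar polarity genes, the group of VANGL2, numbered 14 others. None was called in senescent against young cells, where limma gave an unadjusted p under 0.05 to 3 of them. In old against senescent cells 2 were higher and 3 lower. VANGL1, the paralog of VANGL2, was 1.78-fold higher in old than in senescent cells (0.83 ± 0.12 SE, adjusted p = 4.25e-04), where VANGL2 was lower. PRICKLE1, a cytoplasmic partner of VANGL proteins, was 2.7-fold lower (-1.43 ± 0.10, adjusted p = 6.29e-07), with arrays from 0.47 to 0.60 in senescent and from -1.06 to -0.78 in old cells. DAAM2, a formin that binds Dishevelled, was 3.17-fold lower (-1.66 ± 0.13, adjusted p = 1.65e-06) and INTU, a planar polarity effector of cilia, 2.26-fold lower (-1.17, adjusted p = 8.08e-04). PRICKLE2 was higher (0.50, adjusted p = 0.028) and also rose 1.78-fold in old against young cells at 3% (0.83 ± 0.13, adjusted p = 0.00553). In young cells at 3% against 20%, DAAM2 (-0.87, adjusted p = 4.83e-04) and PRICKLE1 (-0.67, adjusted p = 4.70e-04, with -1.02 for the probe set of largest SD) were lower. The PRICKLE1 fall in old against young cells at 3% (-0.53, adjusted p = 0.0142) reached 0.066 without the third young 3% array.

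The Wnt/calcium branch had 11 genes measured. In old against senescent cells 2 were higher and 1 lower, in senescent against young cells 1 higher and 1 lower, in young cells at 3% against 20% none higher and 2 lower, and in the interaction none higher and 2 lower. CAMK2D, a calcium/calmodulin-dependent kinase, was 1.57-fold lower in old than in senescent cells (-0.65 ± 0.12 SE, adjusted p = 0.00314, with -0.99 for the probe set of largest SD). NFATC2 and NFATC3, transcription factors activated by calcineurin, were higher there. NFATC2 gave 0.52 (adjusted p = 0.0262, and 0.11 without the third senescent array), with 1.62 for the probe set of largest SD. The other NFATC2 probe sets gave 0.52, 0.0023 and -0.05. NFATC3 gave 0.34 (adjusted p = 0.0495, and 0.164 without the first old array), with 0.54 and an adjusted p of 0.193 for the probe set of largest SD. NLK, a kinase that acts on TCF/LEF factors, was lower in senescent cells (-0.59, adjusted p = 0.00407) and in young cells at 3% (-0.67, adjusted p = 0.00165). With the probe set of largest SD neither NLK difference was called (adjusted p = 0.125 and 0.0548). PPP3CA, a calcineurin subunit, was higher in senescent cells (0.41, adjusted p = 0.0147, and 0.0647 without the first senescent array).

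**Figure D5:**
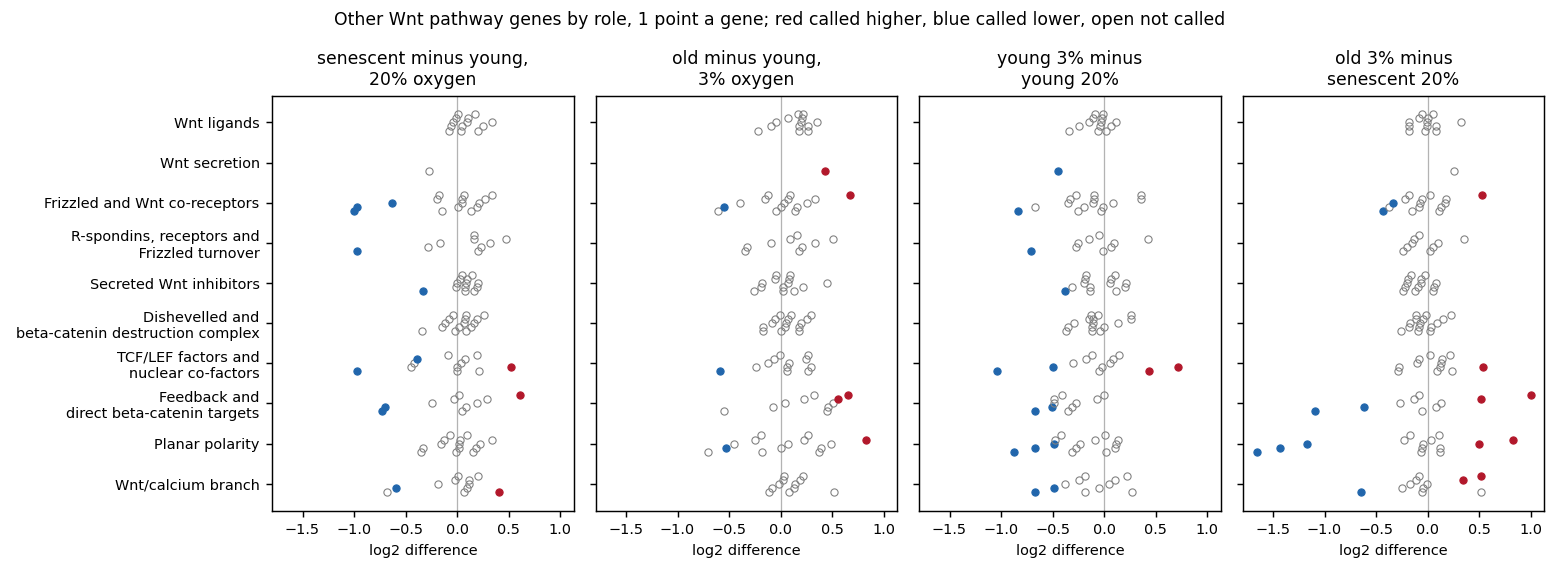
Log2 differences of the 113 other Wnt pathway genes by role, 1 point per gene, for the 4 differences between 2 groups, with genes called higher in red, called lower in blue and not called as open points; a gene on several lists is drawn once. No Wnt ligand and no gene of the destruction complex is called, and DAAM2, PRICKLE1 and INTU are the lowest planar polarity genes in old against senescent cells.

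Markers of fibroblasts and of other cell types were read beside these results. Since levels cannot be read, the label of the line could not be checked by level. Of 12 fibroblast markers, 1 was higher and 5 lower in senescent than in young cells, and their mean per array was 0.21 to 0.25 in young cells at 20% oxygen, -0.03 to -0.01 in senescent cells, -0.12 to -0.03 in young cells at 3% and -0.16 to -0.02 in old cells. Between young cells, 1 was higher and 4 were lower at 3% than at 20%. LUM, a collagen-binding proteoglycan, was 2.69-fold lower in senescent cells (limma, adjusted p = 1.25e-06) and 2.83-fold lower in young cells at 3% (adjusted p = 5.74e-07), where S100A4, a calcium-binding protein, was higher (0.76, adjusted p = 0.00371). Of 7 smooth muscle and pericyte markers, 2 were lower in senescent cells, ACTA2 (-0.69, limma adjusted p = 0.00131) and CNN1 (-0.79, adjusted p = 0.0168), and none was higher. Of these 7, 1 was higher and 2 lower in young cells at 3% against 20%, 1 higher and none lower in old against young cells at 3%, 2 higher and 1 lower in old against senescent cells, and none higher and 1 lower in the interaction. MCAM was higher in old than in young cells at 3% (0.63, limma adjusted p = 0.0223) and than in senescent cells (0.61, adjusted p = 0.00558), with an interaction of -0.92 (adjusted p = 0.00691). CSPG4 was higher in young cells at 3% (0.62, limma adjusted p = 0.00488) and in old than in senescent cells (0.68, adjusted p = 0.0028). By limma none of 8 endothelial and 6 immune markers was called in any comparison, where up to 2 endothelial and 0 immune markers had an unadjusted p under 0.05, and of 11 epithelial markers KRT19 alone, lower in young cells at 3% (-0.91, limma adjusted p = 0.00498). The ACTB control probe sets are centred too, so the difference between them shows shifts between arrays and not how intact the RNA was. The difference between 3′ and 5′ ACTB control probe sets, a relative sign of RNA quality, ran from -0.19 to 0.25 in young and from 0.02 to 0.35 in senescent cells at 20%, and from -0.18 to 0.71 in young and from -0.22 to 0.02 in old cells at 3%. The part of these in the Wnt values was not tested. With arrays of whole cultures, fewer cells that make a transcript and less of it per cell cannot be told apart.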

How the data were processed

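RNA of IMR-90 cells was hybridised to 12 Affymetrix arrays, 3 per group. The authors made the deposited log2 values with RMA, per the submitters' processing notes. The version of RMA is not stated, the base is assumed from RMA, and every probe set has a median of 0 over the arrays (within 1e-06), which hides levels and signal over background. With 3 arrays per group, their number limits the precision.

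Of 54675 probe sets, 62 were controls and 41091 named 1 gene. Those were matched to current symbols by Entrez identifier (41037 matched) and averaged into 19775 genes. Probe sets naming several genes (1801) or none (11721) were left out. The lmFit and eBayes functions of limma 3.58.1 (R 4.3.3) fitted the 4 group means and 5 contrasts, with two-sided tests and Benjamini-Hochberg adjustment over all genes within a contrast. The fit was tested on simulated data. Tables and plots were made in Python 3.11.15.

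The 10 genes, the lists of other Wnt genes and markers, and the rule that names genes were all chosen with earlier results of these data known. The rule names all 10 genes, up to 4 called genes with the largest absolute change per list and contrast, every called gene of a list with 3 or fewer, the 5 most and 3 least correlated genes of WNT2 and of VANGL2, and up to 2 called markers per list. The text names part of the genes it allows.

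The 3 same-numbered pairs of senescent and old arrays correlated in their deviations from the group means at 0.129, 0.519 and 0.669, which was above 0.1 for all pairs of no other 2 groups. The labels do not say what the numbers share. Promoter sequences are RefSeq's for GRCh38.p14, and 6 of the 10 genes had an entry. Alternatives were eBayes with trend, the probe set of largest SD, probe sets without averaging, 2 rescalings, a fit of 2 groups alone, array weights, a replicate block, a filter on flat genes, a stricter adjusted p and each array left out in turn.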

Additional observations from a re-analysis of the deposited data

Results flagged for a closer look

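For several genes, the change with population doublings at 20% oxygen (senescent minus young) differed from the change at 3% oxygen (old minus young), by the interaction term of the fit. The old cells are labelled nonsenescent, so the 2 changes differ in state as well as in oxygen. Of the 10 genes, which were chosen on such differences and carry no p-value, WNT2 had an interaction of -4.27 ± 0.27 SE (log2), DKK1 -1.62 ± 0.14 and WNT16 -1.28 ± 0.16. VANGL2 had 1.39 ± 0.19, with falls of different size at both oxygen levels, and DKK3 0.76 ± 0.14.

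Among the other Wnt genes, with limma's adjusted p, LEF1 had -1.26 (4.43e-05), CCN4 -1.35 (2.21e-04), BAMBI -1.19 (0.00147), FZD7 -0.63 (0.00478), PRICKLE1 0.76 (0.00546), WLS -0.70 (0.00574) and TNFRSF19 -0.59 (0.0261). The calls of LEF1, CCN4, BAMBI, FZD7, PRICKLE1 and WLS held without any 1 array. That of TNFRSF19 was not followed with an array left out, and its probe sets gave -1.85, 0.18 and -0.10. The following were lost without some array, and the value after each adjusted p is the highest reached: DAAM2 0.79 (0.0189, then 0.0582 without the first young 20% array), VANGL1 -0.72 (0.0221, then 0.0695 without that array), and ZNRF3 -1.06 (0.0245, then 0.0722 without it). PRICKLE2 had -0.81 (0.021, then 0.0581 without the third senescent array), NLK -0.62 (0.0401, then 0.102 without it) and NFATC2 -0.71 (0.0471, then 0.122 without it). With the probe set of largest SD the interaction was -1.65 for NFATC2, -3.66 for LEF1, -2.35 for CCN4 and -1.21 for WLS, and that of NLK was -0.69 (adjusted p = 0.323). The other NFATC2 probe sets gave -0.80, -0.21 and -0.19, and those of LEF1 0.02 and -0.15. Those of CCN4 gave -2.13, -0.93 and -0.0006, and those of WLS -0.82 and -0.07. The change of NLK was -0.59 from young to senescent cells and 0.03 from young to old cells, and that of FZD7 was -0.63 and 0.0015. CCN4 fell by 0.70 in senescent cells and rose by 0.65 in old cells. Without the first old array the latter was 0.60 (adjusted p = 0.0516).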

How the results depend on the processing

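No called value of the 10 genes, or among the 62 followed calls of other Wnt genes, changed sign under any alternative fit of values per gene. In the fit per probe set, some probe sets of other Wnt genes had the opposite sign to the gene's called value. Examples were ROR1 in old against young cells at 3% (0.09 against -0.55) and FRZB in senescent against young cells (0.17 against -0.33). Under the alternative fits per gene, the 62 followed calls were kept in 1039 cases and lost in 199. Other Wnt genes called in senescent against young cells numbered 40 with array weights, 23 with at least 1 called probe set in a fit per probe set and 8 at an adjusted p under 0.01. In old against young cells at 3% they numbered 2 in a fit of 2 groups alone, 2 at the stricter p and 2 to 8 with an array left out. In young cells at 3% against 20% they numbered 9 at the stricter p, and members called there 3 to 6 with an array left out. In old against senescent cells they numbered 25 with array weights, 8 at the stricter p and 9 to 17 with an array left out, and in the interaction 24, 6 and 6 to 13. Over all genes, array weights gave 6203 calls in senescent against young cells, 4137 in old against senescent cells and 2684 in the interaction, where a fit per probe set gave 1936 genes with at least 1 called probe set. Old against young cells at 3% had 124 calls in 2 groups alone and 187 to 423 with an array left out. Array weights were 5.54 and 5.69 for the first young 20% and first senescent array and 0.37 to 1.73 for the others. With a replicate block, WNT5A in young cells at 3% lost its call and no other call of the members changed. As above, nothing is read from counts of the members, which were chosen on these differences. With the block fitted on senescent and old arrays only, where the numbers may pair the samples, 6 members, 17 other Wnt genes and 2842 genes in all were called, and no call of the members changed. The causes were not tested.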
